A study of Mus musculus with 24 samples.

Results

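The oxidative phosphorylation system of the mitochondrial inner membrane is built from subunits encoded mostly in the nucleus, and the transcripts of 86 such genes were followed here in macrophages taken from colon tumors. The genes are the protein-coding entries whose symbols begin with Ndufa, Ndufb, Ndufc, Ndufs or Ndufv (Ndufaf assembly factors dropped), Uqcr, Cox4i, Cox5, Cox6, Cox7, Cox8 or Atp5, together with Sdha, Sdhb, Sdhc and Sdhd. They are 86 of the 55487 gene IDs counted. By complex they comprise 38 genes of complex I, 4 of complex II, 8 of complex III, 18 of complex IV and 18 of complex V. The cytochrome c1 gene Cyc1 and the ATP synthase inhibitor Atpif1 have symbols outside these prefixes and are described with the neighbouring pathways.

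Macrophages were sorted by surface CD45, CD11b and F4/80 from MC38 tumors, a mouse colon carcinoma line, grown orthotopically in C57BL/6J hosts. The tumor cells were APC-WT or APC-KO, and the macrophages came from the host, so the genotype names the tumor and not the cell sequenced. Of each genotype there were 2 tumors, and each tumor gave 6 ultra low input Nextera XT libraries that the labels describe as replicates of one sample, 24 in all. The tumor was therefore the unit of replication for the genotype, and p-values over libraries measure only the spread between libraries of a tumor. The labels give no age or sex of the hosts, and how the APC-KO line was made or how many clones it holds is not given in the sources used here. Transcripts of the deleted gene in host macrophages do not check these labels.

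Complex I oxidises NADH and complex II oxidises succinate, and both pass electrons to ubiquinone. Complex III carries them on to cytochrome c and complex IV to oxygen, while complex V, the ATP synthase, uses the proton gradient that complexes I, III and IV build. Complex II is also an enzyme of the tricarboxylic acid cycle and is the complex with no mitochondrially encoded subunit; in macrophages its substrate succinate and its inhibitor itaconate are known to shift with inflammatory activation.

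The libraries of the genotypes differed in depth and make-up, and the results below carry these differences with them. Total counts were 74972634 to 93568353 per library in APC-WT tumor 1 and 28018638 to 46837543 in APC-WT tumor 2, against 8895722 to 19328572 in APC-KO tumor 1 and 13464061 to 17196820 in APC-KO tumor 2. A total of 3938 genes were taken as expressed, which required a mean of at least 10 CPM (counts scaled to library size) over the 4 tumors and at least 10 times the background that olfactory and vomeronasal receptor genes give per kb of exon. These genes held 81.6% and 73.6% of the counts in the APC-WT tumors and 33.1% and 31.7% in the APC-KO tumors. Satellite-like loci held 1.32% and 7.08% in APC-WT against 37.9% and 38.5% in APC-KO. The macrophage markers were present in all 4 tumors, with 14 of 15 expressed (Cd163 was not), summed levels of 56020.4 to 78370.3 in APC-WT and 62899 to 80541 scaled CPM in APC-KO, and 0 higher and 6 lower after the length term described next. The genes of the sort antigens were among the 6: Adgre1 (F4/80), Itgam (CD11b) and Ptprc (CD45) changed by -1.63, -1.96 and -0.93. Csf1r was another, at -1.68. The sums hide these falls, since Apoe alone had 37138 and 21469 scaled CPM in APC-WT and 28213 and 44590 in APC-KO. On that scale Csf1r fell from 3908 and 2919 to 649 and 747 and Itgam from 1599 and 1716 to 281 and 279. Lyz2, C1qa and C1qb had higher levels in both APC-KO tumors than in either APC-WT tumor. Markers of T and NK cells, B cells, dendritic cells and erythroid cells had 0 expressed members. Neutrophil markers (5 of 7 expressed, 0 higher and 2 lower) summed to 480 and 633 scaled CPM in APC-WT and 526 and 277 in APC-KO, and fibroblast markers (3 of 5, 0 higher and 3 lower) to 1572 and 901 against 344 and 529. Epithelial or tumor markers (3 of 5) summed to 169 and 527 against 221 and 278 and endothelial markers (1 of 3) to 134 and 199 against 169 and 171, with 0 calls in each. With that length term 23.5% of all expressed genes were higher and 22.8% lower. The part of other cells in the results was not tested. Depth, library make-up and genotype cannot be told apart in this design, and in bulk RNA fewer cells of a type and less RNA per cell cannot be told apart either.

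Most subunit transcripts took a larger share of the expressed counts in APC-KO than in APC-WT tumors. How much of that difference followed transcript length depended on the length taken for a gene. The expressed subunits held 0.511% and 0.530% of the expressed counts in the APC-WT tumors and 1.1% and 1.14% in the APC-KO tumors. Without regard to length, 63 of the 69 expressed subunits were higher in APC-KO and 1, Sdha, was lower, where 32.7% of all expressed genes were higher and 30.7% lower (edgeR quasi-likelihood test on 2 against 2 tumor sums, adjusted p under 0.05). Their median log2 change was 1.47, a 2.76-fold difference, beside 0.004 over all expressed genes. With the length term described below it was 0.18 by the longest coding transcript and 0.69 by the median length of coding transcripts.

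Subunit transcripts are short, and the shorter length classes had the higher median changes over all expressed genes. The longest protein-coding transcript of an expressed subunit had a median of 865 bp, against 2340 bp for all expressed genes. The median log2 change over every expressed gene no longer than 500 bp was 2.22 (52 genes), and it was -0.57 for those over 3000 and up to 6000 bp. The subunits were above the median of their length class in each of the 7 classes they fill, each class starting where the one before it ends. The gap was small among short transcripts: 2.41 for the 5 subunits no longer than 500 bp beside 2.22, 1.56 for the 22 up to 750 bp beside 1.47, and 1.52 for the 13 up to 1000 bp beside 1.32. It was 1.18 beside 0.74 for the 12 up to 1500 bp, 0.45 beside 0.23 for the 11 up to 2000 bp, 0.45 beside -0.23 for the 4 up to 3000 bp and 0.94 beside -0.57 for the 2 up to 6000 bp. Spearman's rho between change and length was -0.614 over n = 3938 expressed genes and -0.54 over the n = 69 subunits, and with the length term described below it was -0.0128 and 0.274; genes of one library are not independent, so these are descriptions.

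**Figure D1:**
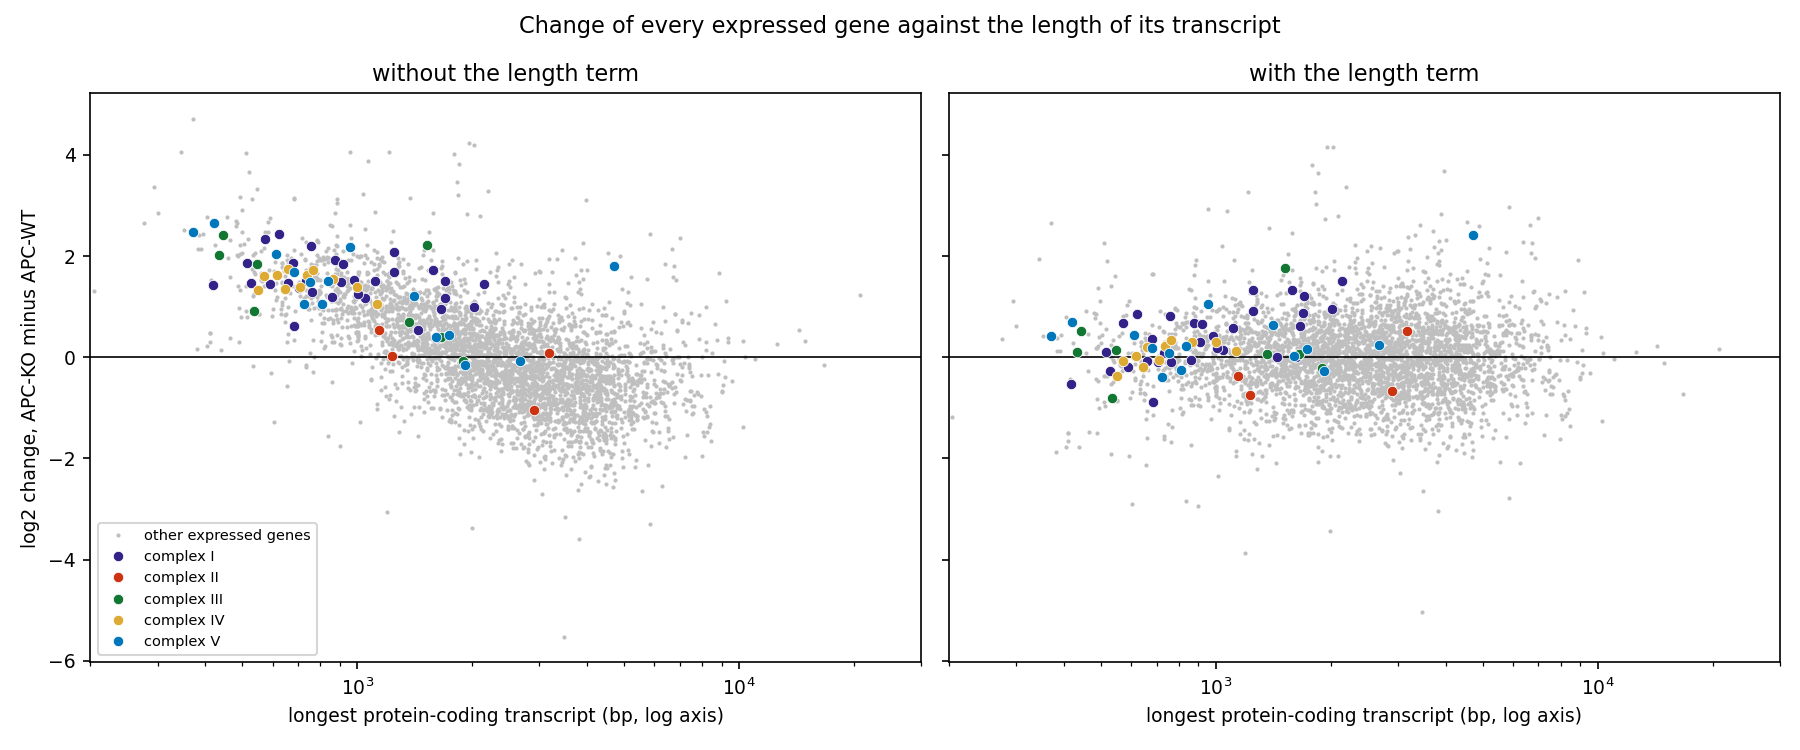
Log2 change between APC-KO and APC-WT tumors (vertical axis) against the longest protein-coding transcript of each of the 3938 expressed genes (horizontal axis, bp, log scale), without the length term on the left and with it on the right. Grey points are other genes and coloured points are the 69 expressed subunits by complex. On the left the short subunits lie high together with other short genes (median change of the subunits 1.47), and on the right they spread around 0 (median 0.18).

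The length term is a smooth curve of level on transcript length fitted in each tumor, entered as an offset in the same test. With it, 24 subunits were higher in APC-KO, 7 were lower and 38 passed in neither direction, and the share of all expressed genes called was 23.5% higher and 22.8% lower. The median change fell to 0.18, with a range of -0.88 to 2.41, beside -0.02 over all expressed genes. Subunits with long annotated transcripts kept the higher values: the 4 over 2000 and up to 3000 bp had a median of 0.59 and the 2 over 3000 bp 1.47, where all genes of these classes had -0.04 and -0.03. Between tumors of one genotype the median subunit differed little, by -0.06 between APC-WT tumor 2 and tumor 1 and by 0.05 between APC-KO tumor 2 and tumor 1. All log2 changes from here on are APC-KO minus APC-WT with the length term unless the sentence says otherwise, and adjusted p-values are those of edgeR's quasi-likelihood test over all expressed genes.

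Which transcript stands for a gene mattered, and so did the lengths taken for all other genes, which set the curve. With the length of the principal isoform 22 subunits were higher and 8 lower (23.6% and 22.1% of all genes tested), and with the median length of a gene's coding transcripts 53 were higher and 5 lower (27.9% and 26.6%). Ndufa1, Cox8a and Uqcrb have the same longest and median coding length (419, 550 and 535 bp). Their changes still moved with the curve, from -0.52, -0.37 and -0.81 with the longest coding transcript to 0.20, 0.41 and -0.036 with the median. Calls of one sign under all 4 length measures, the longest transcript of any type included, were made for 21 subunits upward and 2 downward, where 15.9% and 17.4% of all genes met the same conditions. The 21 were Ndufa2, Ndufa5, Ndufa10, Ndufa12, Ndufa13, Ndufb7, Ndufc1, Ndufs4, Ndufs6, Ndufs7, Ndufv1, Ndufv2, Ndufv3, Uqcr11, Uqcrq, Atp5d, Atp5e, Atp5g1, Atp5j2, Atp5k and Atp5mpl, and the 2 were Sdha and Sdhd. Requiring the call without the length term as well kept all 21 upward and Sdha alone downward, beside 12.9% and 16.5% of all genes. None of the 11 expressed complex IV subunits was among the 21. The leaving out of single tumors cost many calls, and how many of all genes kept a call in every such run was not computed. With each tumor left out in turn 12 to 18 subunits were higher and 0 to 7 lower, with the fewest, 12 and 0, without APC-KO tumor 1 and 15 and 2 without APC-KO tumor 2. The share of all genes called fell as well, to 10.8% higher and 7.63% lower without APC-KO tumor 1 and 10.8% and 8.58% without APC-KO tumor 2, against 20.1% to 21.3% and 19.3% to 23.2% without an APC-WT tumor. Of the 24 higher subunits, 9 were tested and called whichever tumor was left out, namely Ndufa10, Ndufa13, Ndufb7, Ndufb8, Ndufc1, Ndufv2, Ndufv3, Uqcrq and Atp5j2, and of the 7 lower subunits 0 were.

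Compared complex by complex, complex II had the lowest median change of the 5. Complex I, with the most expressed genes, had the most calls. Beside the counts that follow, 23.5% of all expressed genes were higher and 22.8% lower. The median change was 0.36 for the 31 expressed complex I subunits (15 higher, 2 lower), -0.52 for the 4 of complex II (1 higher, 2 lower), 0.08 for the 8 of complex III (2 higher, 1 lower), 0.13 for the 11 of complex IV (0 higher, 1 lower) and 0.23 for the 15 of complex V (6 higher, 1 lower). The mean length-corrected level of complex II, less that of all other subunits, was 1.43 and 1.48 log2 units in the APC-WT tumors and 0.78 and 0.86 in the APC-KO tumors. Both APC-KO tumors thus lay below both APC-WT tumors, and the difference was -0.64. The same difference was 0.22 for complex I, -0.09 for complex III, -0.24 for complex IV and 0.13 for complex V. An exact two-sided permutation test of 2 against 2 tumors gave p = 0.333 for each of the 5, which is the smallest p this test can give with 2 against 2 tumors, so it cannot pass 0.05 here.

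The summed levels without the length term show how far apart the raw levels were. In scaled CPM, which is CPM over the expressed genes alone after trimmed-mean scaling, complex I summed to 1270 and 1243 in the APC-WT tumors and to 3329 and 3286 in the APC-KO tumors. Complex II summed to 737, 735, 653 and 697 in the same order and was the only complex of the 5 whose sum was lower in both APC-KO tumors. Complex III summed to 613, 654, 1281 and 1243, complex IV to 712, 680, 2069 and 1946, and complex V to 2218, 2210, 3272 and 3284. The transcripts of complex II were longer, with a median of 2066 bp over its 4 genes against 709 bp for complex IV, 838 bp for complex V, 908 bp for complex I and 955 bp for complex III. Without the length term the medians of complexes I, III, IV and V were 1.47, 1.38, 1.56 and 1.48, and that of complex II was 0.05. Where libraries are said below not to overlap, the levels are scaled CPM without the length term. How many of all expressed genes have no overlap was not computed.

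**Figure D2:**
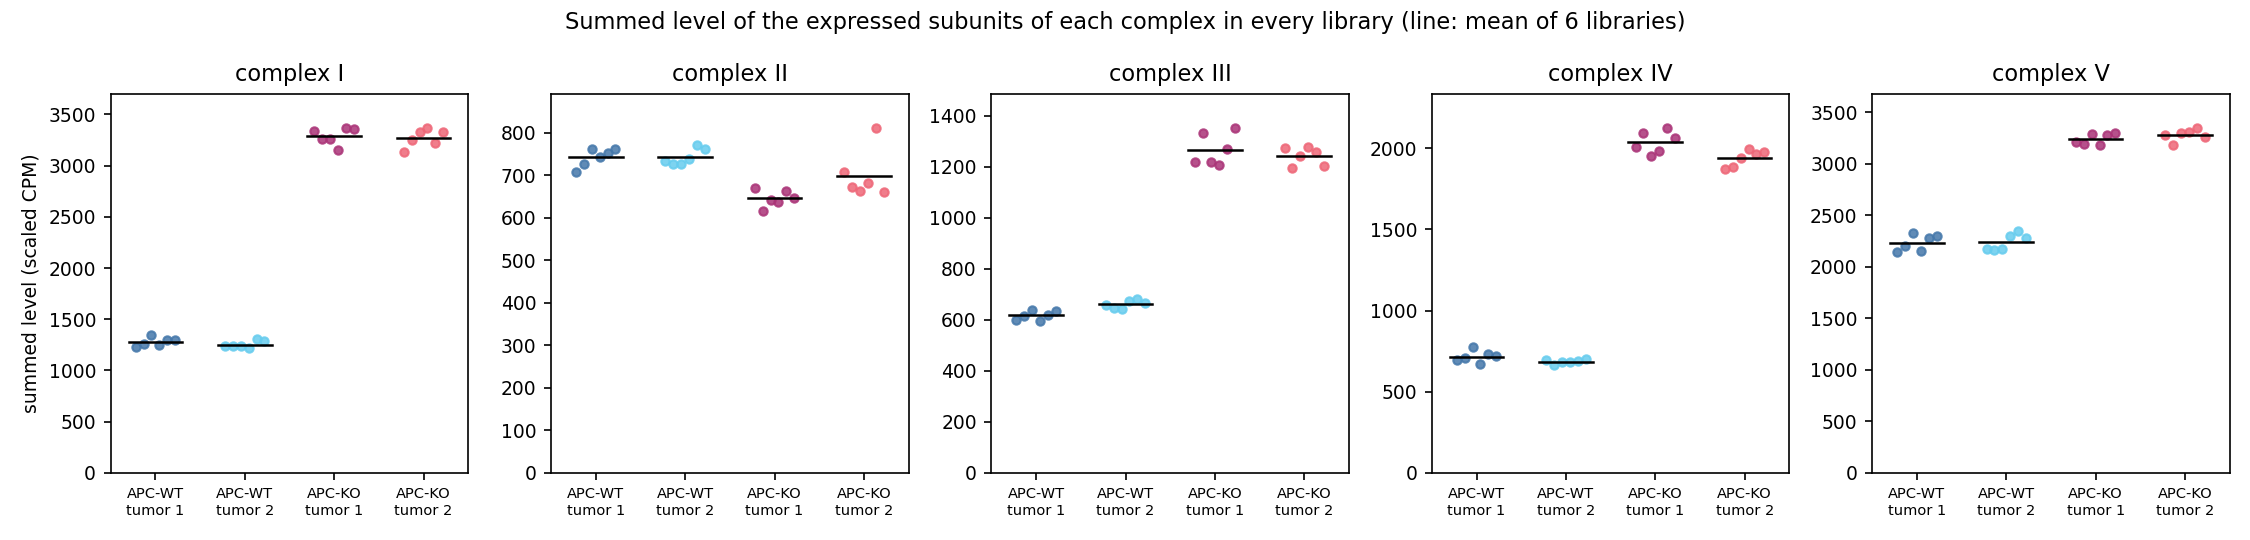
Summed level of the expressed subunits of each complex in every library (vertical axis, scaled CPM, no length term; horizontal axis, the 4 tumors). Points are libraries and lines the mean of the 6 libraries of a tumor. Libraries of APC-KO tumors lie above those of APC-WT tumors for complexes I, III, IV and V, while for complex II the tumor sums are 737 and 735 in APC-WT and 653 and 697 in APC-KO.

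Complex II is succinate dehydrogenase, and its flavoprotein subunit Sdha was the clearest lower transcript of the whole chain. Sdha (ENSMUSG00000021577, chr13:74322254-74350280, minus strand, GRCm38) lay between 291 and 313 scaled CPM (median 309.5) in APC-WT tumor 1 and between 279 and 304 (median 289) in APC-WT tumor 2. It lay between 98.6 and 154 (median 139) in APC-KO tumor 1 and between 129 and 181 (median 142) in APC-KO tumor 2. Every APC-KO library was below every APC-WT library. The log2 change was -0.67 ± 0.12 (SE of the fit, 2 against 2 tumors; adjusted p = 0.013 by edgeR) and -1.05 without the length term. Its direction was the same under every alternative run, but its adjusted p was 0.07 without APC-KO tumor 1 and 0.0537 without APC-KO tumor 2.

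Sdhd, a membrane anchor of complex II, was lower only relative to other transcripts of its length. Sdhd (ENSMUSG00000000171, chr9:50596357-50603812, minus strand) had 144 to 161 scaled CPM (median 150.3) in APC-WT tumor 1, 159 to 167 (median 163) in APC-WT tumor 2, 134 to 189 (median 146) in APC-KO tumor 1 and 130.4 to 198 (median 151) in APC-KO tumor 2. The libraries of the genotypes overlapped on this scale. With 1231 bp in its longest transcript, where other genes were higher in APC-KO, its change was -0.75 ± 0.10 (adjusted p = 0.00604 by edgeR), against 0.03 without the length term. Its adjusted p was 0.0513 without APC-KO tumor 1.

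The iron-sulfur subunit Sdhb did not pass the test. It had 176.5 to 190.4 scaled CPM (median 186) in APC-WT tumor 1, 180.0 to 207 (median 186) in APC-WT tumor 2, 222 to 287.4 (median 254) in APC-KO tumor 1 and 257 to 298 (median 287.2) in APC-KO tumor 2. All APC-KO libraries were above all APC-WT libraries on that scale, while the length-corrected change was -0.37 ± 0.13 (adjusted p = 0.0674 by edgeR) and the change without the length term 0.53. For Sdhc, the other membrane anchor, the sign depended on the transcript chosen. It had 95.2 to 105 scaled CPM over the 12 APC-WT libraries and 83.1 to 134 over the 12 APC-KO libraries, which overlapped. Its longest coding transcript has 3171 bp and the median of its coding transcripts is 815 bp, and the change was 0.52 ± 0.11 (adjusted p = 0.018 by edgeR) with the former and -0.49 (adjusted p = 0.0189 by edgeR) with the latter.

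**Figure D3:**
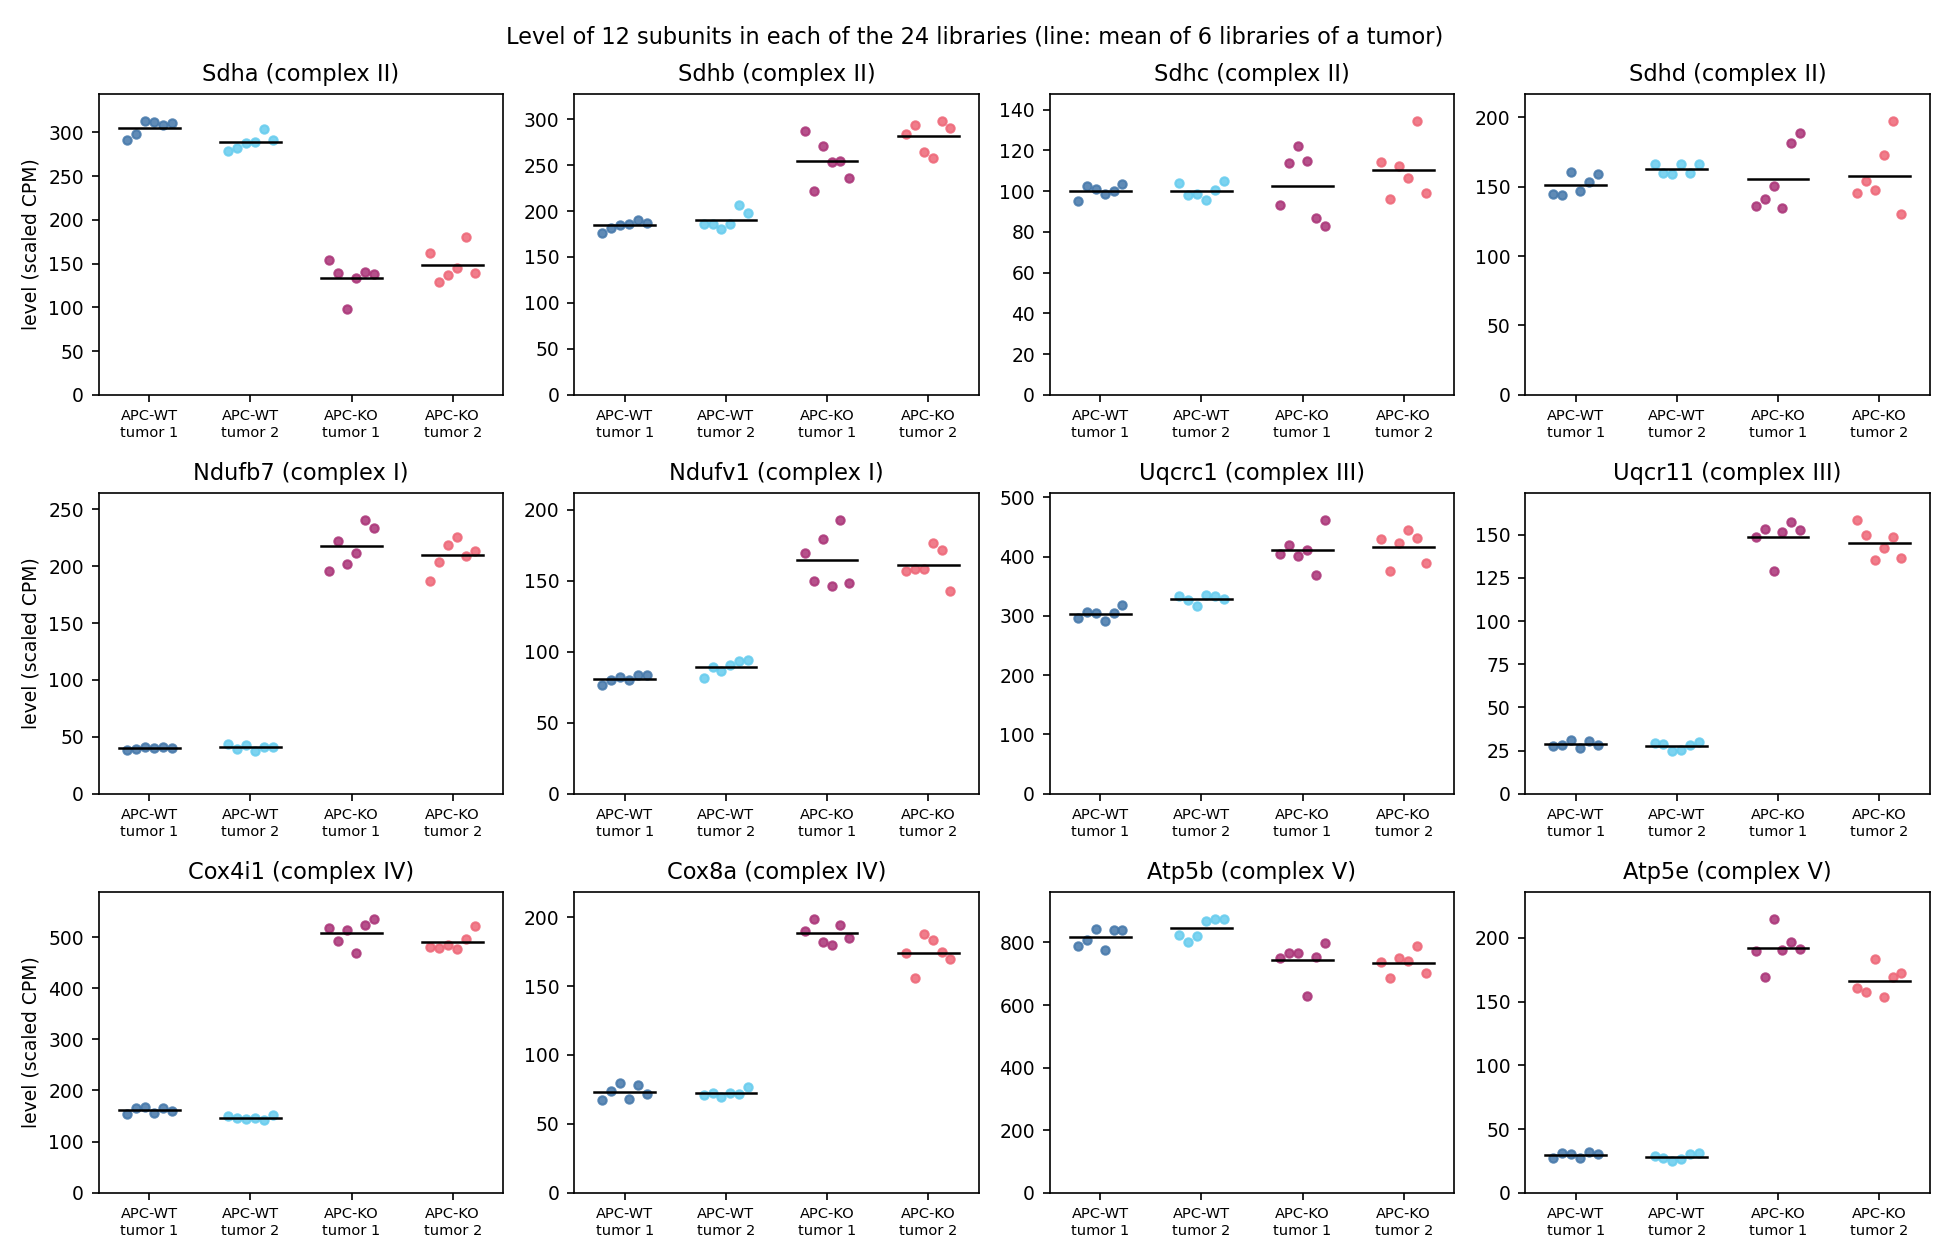
Level of 12 subunits in each of the 24 libraries (vertical axes, scaled CPM from 0, no length term; horizontal axes, the 4 tumors; lines, mean of 6 libraries). Sdha lies lower in every APC-KO library (98.6 to 181) than in every APC-WT library (279 to 313), Sdhc, Sdhd and Atp5b overlap between genotypes, and the others shown lie higher in every APC-KO library.

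Complex I, the NADH dehydrogenase, held 31 of the 69 expressed subunits and 15 of the 24 higher ones. Among the conserved core subunits, Ndufv1, Ndufv2 and Ndufs7 rose, while Ndufs3 and Ndufs8 passed in neither direction with changes of 0.14 and 0.18. Ndufv1, which holds the flavin and binds NADH, had 76.8 to 84.0 scaled CPM (median 81.1) in APC-WT tumor 1, 81.6 to 94.1 (median 89.7) in APC-WT tumor 2, 147 to 193 (median 159.9) in APC-KO tumor 1 and 143 to 177 (median 158) in APC-KO tumor 2. No APC-KO library overlapped an APC-WT library, and its change was 0.62 ± 0.09 (adjusted p = 0.00844 by edgeR) and 0.96 without the length term. Ndufs1, the largest subunit, with 70.5 and 75.5 scaled CPM in the APC-WT tumors and 85.5 and 83.4 in the APC-KO tumors, did not reach 10 times its expected background, which was 31.7 and 32.0 in the APC-KO tumors.

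Accessory subunits of complex I moved apart. Of the small subunits, Ndufb7 (chr8:83566671-83571626, plus strand), which lies in the distal membrane arm, had 38.4 to 41.4 scaled CPM (median 40.2) in APC-WT tumor 1, 37.6 to 43.6 (median 40.9) in APC-WT tumor 2, 196 to 241 (median 217) in APC-KO tumor 1 and 187 to 225 (median 211) in APC-KO tumor 2. Its levels did not overlap between genotypes. The change was 2.43 without the length term and 0.85 ± 0.09 with it (adjusted p = 0.00477 by edgeR). Ndufa2 had 39.2 to 48.2 scaled CPM over the APC-WT libraries and 170 to 256 over the APC-KO libraries, with a change of 0.67 ± 0.10 (adjusted p = 0.00785 by edgeR).

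The other risers of complex I were Ndufa5 (0.69), Ndufa10 (0.95), Ndufa11 (0.66), Ndufa12 (0.57), Ndufa13 (0.92), Ndufb8 (1.499), Ndufc1 (1.33), Ndufs4 (1.21), Ndufs6 (0.81) and Ndufv3 (1.33). The 4 with the smallest p had tumor means, with the APC-WT pair first and the APC-KO pair second, of 69.6, 70.0, 180.0 and 196 scaled CPM (Ndufb8), 38.1, 42.5, 142 and 123 (Ndufv3), 25.2, 25.9, 75.1 and 69.5 (Ndufs4) and 19.3, 17.9, 74.7 and 79.4 (Ndufc1). In each of these 4, picked by p, all APC-KO libraries were above all APC-WT libraries on that scale, which has no length term. Ndufb8 and Ndufa11 lost the call with the principal isoform: the annotation gives Ndufb8 a longest transcript of 2142 bp and a principal one of 680 bp, and its change was -0.06 with the latter. Ndufc2 and Ndufa1 fell relative to transcripts of their length, with changes of -0.88 and -0.52 (adjusted p = 0.0127 and 0.025 by edgeR), although their tumor means were higher in APC-KO, at 73.3 and 75.9 against 53.9 and 44.0 scaled CPM for Ndufc2 and at 47.3 and 42.0 against 17.4 and 15.9 for Ndufa1. With the median coding length neither passed (-0.26 and 0.20). The changes of the 11 further accessory subunits that passed in neither direction, Ndufa3, Ndufa6, Ndufa7, Ndufa8, Ndufa9, Ndufb3, Ndufb6, Ndufb9, Ndufb10, Ndufb11 and Ndufs5, ranged from -0.28 (Ndufa7) to 0.36 (Ndufs5).

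In complex III, the cytochrome bc1 complex, the large core proteins did not pass the test with the longest coding transcript and the small subunits went both ways. Uqcrc1, a core protein and the complex III gene of highest level per kb in APC-WT (192 scaled CPM per kb of principal transcript), had 292 to 319 scaled CPM (median 305) in APC-WT tumor 1, 318 to 335 (median 331) in APC-WT tumor 2, 369 to 462 (median 408) in APC-KO tumor 1 and 376 to 445 (median 426) in APC-KO tumor 2. The APC-KO libraries were all higher, by 0.40 log2 units without the length term, and the corrected change was 0.06 ± 0.13 (adjusted p = 0.727 by edgeR). The second core protein Uqcrc2 and the Rieske iron-sulfur protein Uqcrfs1 had corrected changes of -0.21 and 0.07, and the small subunits Uqcrh and Uqcr10 had 0.14 and 0.09, none of them past the threshold. With the median coding length both core proteins were lower, with changes of -0.56 for Uqcrc1 and -0.51 for Uqcrc2 (adjusted p = 0.0208 and 0.0182 by edgeR).

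Uqcr11, the smallest of these subunits, rose in complex III. It had 26.7 to 31.0 scaled CPM (median 28.1) in APC-WT tumor 1, 24.7 to 29.8 (median 28.4) in APC-WT tumor 2, 129 to 157 (median 152) in APC-KO tumor 1 and 136 to 159 (median 146) in APC-KO tumor 2. No libraries overlapped, and the change was 0.51 ± 0.10 (adjusted p = 0.0157 by edgeR) and 2.41 without the length term. Uqcrq, which neighbours the quinone-binding cytochrome b, also rose, from 42.8 to 51.7 scaled CPM over the APC-WT libraries to 181 to 267 over the APC-KO libraries, with a change of 1.76 ± 0.11 (adjusted p = 0.00339 by edgeR) that was 1.19 with the median coding length, since its longest transcript has 1521 bp and its median one 504 bp. Uqcrb, another quinone-site subunit, fell relative to transcripts of its length. It had 27.2 to 36.8 scaled CPM over the APC-WT libraries and 41.8 to 67.1 over the APC-KO libraries, which did not overlap and were higher, while its length-corrected change was -0.81 ± 0.16 (adjusted p = 0.0158 by edgeR). With the median coding length that change was -0.036 (adjusted p = 0.855 by edgeR). Copies of Uqcrb listed as pseudogenes held counts equal to 4.34% and 6.27% of its own in the APC-WT tumors and 13.3% and 11.9% in the APC-KO tumors.

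In complex IV, cytochrome c oxidase, 0 of the 11 expressed subunits were higher and 1 was lower with the longest coding transcript as the length, while all 11 were higher with the median coding length (median change 0.72). With the former their changes spanned -0.37 to 0.34, the narrowest span of the 4 complexes with 8 or more expressed genes. Of all expressed genes, 23.5% were higher and 22.8% lower with the former, and 27.9% and 26.6% with the latter. Cox4i1, the regulatory subunit present in most tissues, had 154 to 168 scaled CPM (median 162) in APC-WT tumor 1, 142 to 152 (median 147) in APC-WT tumor 2, 469 to 535 (median 516) in APC-KO tumor 1 and 477 to 522 (median 482) in APC-KO tumor 2. The levels did not overlap and differed by 1.72 log2 units, but with the length term the change was 0.34 ± 0.13 (adjusted p = 0.0911 by edgeR). Cox8a fell relative to transcripts of its length, with a change of -0.37 (adjusted p = 0.0294 by edgeR), while its level was higher in APC-KO, with 67.3 to 79.7 scaled CPM over the APC-WT libraries and 156 to 199 over the APC-KO libraries. With the median coding length its change was 0.41. Cox5a, Cox5b, Cox6a1, Cox6b1, Cox6c, Cox7a2, Cox7a2l, Cox7b and Cox7c had changes from -0.20 (Cox5a) to 0.31 (Cox5b), and none passed. Their levels too were higher in APC-KO: Cox5b, for example, had tumor means of 36.9 and 35.3 against 105 and 103 scaled CPM, Cox7a2 34.3 and 34.8 against 118 and 110, and Cox7a2l, a factor of supercomplex assembly, 52.3 and 49.7 against 103 and 106.

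The tissue-restricted isoforms of complex IV were low next to their ubiquitous partners. Per kb of principal transcript, Cox4i1 was at 202 scaled CPM in APC-WT and 653 in APC-KO, and Cox4i2, the isoform known for its induction by low oxygen in lung, at 3.77 and 20.6. Cox6a1 was at 166 and 496 against 1.92 and 4.83 for the muscle isoform Cox6a2. Cox6b1 was at 102 and 306 against 2.43 and 15.9 for the testis isoform Cox6b2, and Cox7a2 at 52.4 and 172 against 2.86 and 26.2 for the muscle isoform Cox7a1. Cox8a was at 132 and 329, Cox8b at 0.471 and 7.72 and Cox8c at 0.80 and 14.96. The ubiquitous form was the higher one in both genotypes in each of these pairs. None of Cox4i2, Cox6a2, Cox6b2, Cox7a1, Cox7b2, Cox8b and Cox8c met the limits for expression. Part of their level is background, to a differing degree. Cox6a2 had 3.34 and 3.23 scaled CPM in the APC-KO tumors where 2.67 and 2.69 were expected from the receptor genes. Cox7b2 had 2.59 and 3.38 where 2.13 and 2.14 were expected. The others lay further above it in these tumors. Cox4i2 had 14.5 and 15.8 (3.09 and 3.11 expected) and Cox7a1 11.1 and 9.54 (2.10 and 2.11). Cox8c had 7.31 and 6.39 (1.80 and 1.81), Cox6b2 8.42 and 10.1 (4.35 and 4.38) and Cox8b 2.54 and 3.02 (1.41 and 1.42).

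Complex V, the ATP synthase, held the subunits of highest level per kb in APC-WT. With the longest coding transcript its alpha, beta and gamma subunits did not pass, while the small central stalk subunits Atp5d and Atp5e rose. The beta subunit Atp5b, the transcript of highest level per kb in APC-WT (433 scaled CPM per kb), had 775 to 844 scaled CPM (median 824) in APC-WT tumor 1, 803 to 875 (median 847) in APC-WT tumor 2, 630.1 to 799 (median 760.4) in APC-KO tumor 1 and 687 to 789.9 (median 738) in APC-KO tumor 2. The groups overlapped at their edges, and the change was -0.27 ± 0.14 (adjusted p = 0.163 by edgeR) and -0.15 without the length term. The alpha subunit Atp5a1 had 559.9 to 621 scaled CPM over the APC-WT libraries and 490.3 to 634 over the APC-KO libraries, with a change of 0.24 ± 0.15 (adjusted p = 0.24 by edgeR). The gamma subunit Atp5c1 had 0.17 and did not pass, but with the principal isoform its change was -0.38 (adjusted p = 0.039 by edgeR).

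The small central stalk subunits Atp5d and Atp5e, which couple the ring to the head, rose. Atp5e (chr2:174461072-174464105, minus strand), the epsilon subunit, had 27.2 to 32.0 scaled CPM (median 30.3) in APC-WT tumor 1, 25.1 to 30.9 (median 28.1) in APC-WT tumor 2, 169.5 to 215 (median 191) in APC-KO tumor 1 and 154 to 183 (median 165) in APC-KO tumor 2. No libraries overlapped, and its change was 2.65 without the length term, the largest of the 69 subunits, and 0.70 ± 0.10 with it (adjusted p = 0.00789 by edgeR). Without APC-KO tumor 1 its adjusted p was 0.0534. Atp5d changed by 0.63 ± 0.11 (adjusted p = 0.0124 by edgeR), from 137 and 149 scaled CPM in the APC-WT tumors to 334 and 317 in the APC-KO tumors, and the membrane subunits Atp5j2, Atp5k and Atp5mpl by 1.05, 0.43 and 0.45.

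The 3 genes Atp5g1, Atp5g2 and Atp5g3 encode one and the same mature c-ring protein with different targeting sequences, and they differed. Atp5g1 (chr11:96068852-96075670, minus strand) had 44.3 to 53.2 scaled CPM over the APC-WT libraries and 146 to 174 over the APC-KO libraries, which did not overlap. Its change was 1.81 without the length term and 2.41 ± 0.10 with it (adjusted p = 0.00339 by edgeR). Its longest coding, longest any-type and principal transcripts all have 4715 bp, a length class with a median of -0.57 without the length term. With the median coding length of 2676 bp the change was 2.28. No measure gave Atp5g1 a shorter length, so its change at the length of a shorter transcript was not tested. Atp5g3 fell relative to transcripts of its length, with a change of -0.38 (adjusted p = 0.0445 by edgeR), while its level was higher in APC-KO, with 69.4 to 87.3 scaled CPM over the APC-WT libraries and 128 to 170.3 over the APC-KO libraries, and was at 0.40 with the median coding length. Atp5g2 had 0.09 and did not pass, and copies of it held counts equal to 42.2% to 46.7% of its own in the 4 tumors. Per kb of principal transcript the APC-WT levels were 104 scaled CPM for Atp5g3, 36.0 for Atp5g2 and 10.2 for Atp5g1, and the APC-KO levels were 211, 98.2 and 35.2, the same order. The peripheral stalk and other subunits Atp5f1, Atp5h, Atp5j and Atp5o had changes from -0.26 (Atp5j) to 0.23 (Atp5o), none past the threshold.

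**Figure D4:**
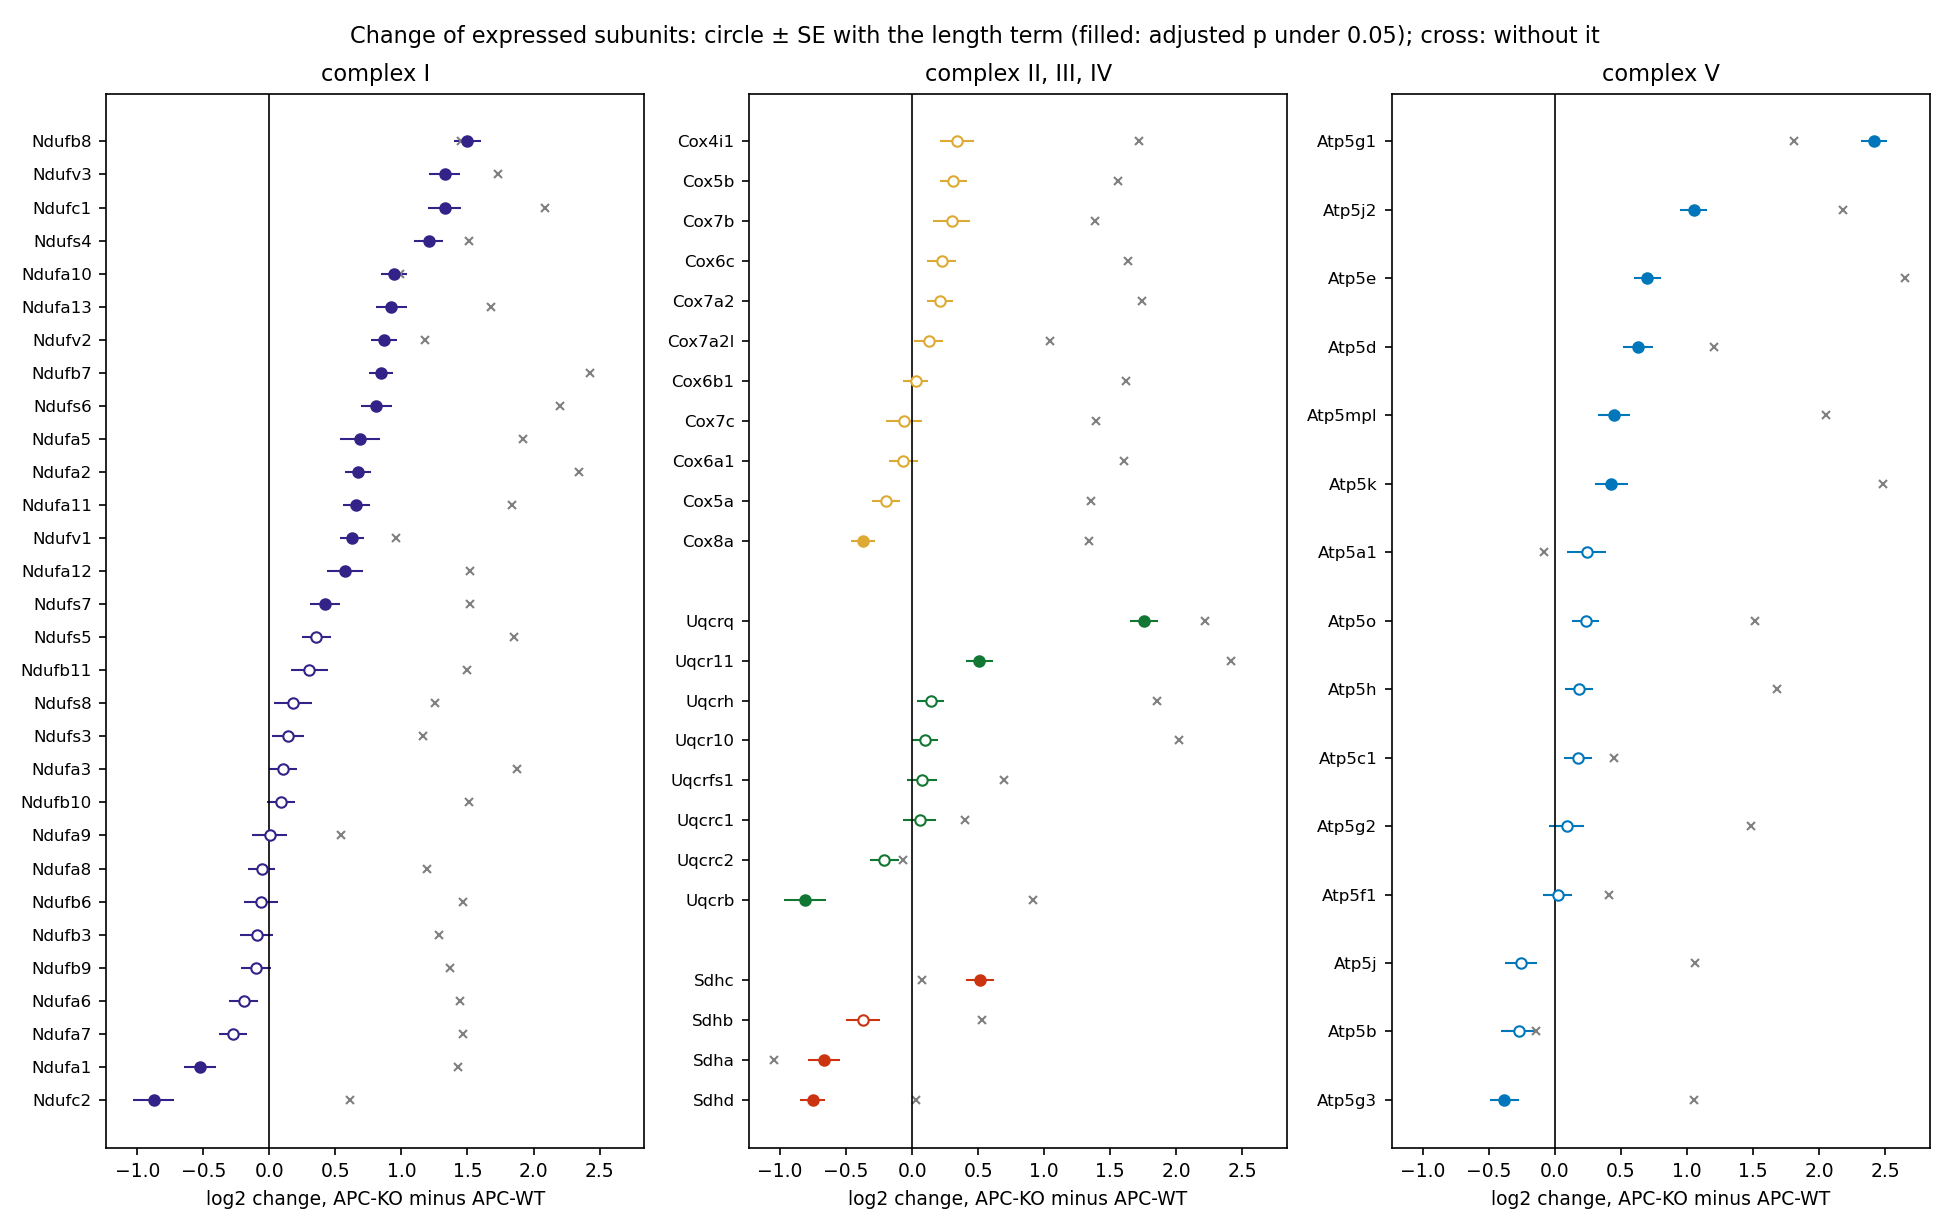
Log2 change between APC-KO and APC-WT tumors of the expressed subunits (horizontal axis), grouped by complex, without a member not reported here. Circles with bars are the change ± SE with the length term, filled where the adjusted p is under 0.05, and grey crosses are the change without the length term. The length term moves most subunits leftward, leaving 24 filled circles above 0 and 7 below.

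Each APC-KO tumor was also set against each APC-WT tumor over their 6 libraries. In all 4 pairs 29 subunits were higher and 13 lower with one sign (edgeR on 24 libraries with the length term, adjusted p under 0.05 in each pair), where 27.7% and 30.3% of all expressed genes were. These pairs share tumors and are not independent. The additional calls beyond those on tumor sums were small in size: Atp5b, for example, differed by -0.28 to -0.30 over the 4 pairs, and Sdhb by -0.29 to -0.49. Sdha differed by -0.56 to -0.82, Ndufb7 by 0.78 to 0.85, Uqcr11 by 0.41 to 0.56 and Atp5g1 by 2.32 to 2.45. Median changes over the 4 pairs ran from 0.26 to 0.47 for complex I, from -0.65 to -0.42 for complex II, from 0.03 to 0.13 for complex III, from 0.01 to 0.18 for complex IV and from 0.13 to 0.29 for complex V. Complex II was the only one of the 5 with a median below 0 in every pair.

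The 17 members outside the expressed set were 7 of complex I (Ndufa4, Ndufa4l2, Ndufab1, Ndufb2, Ndufb4, Ndufb5 and Ndufs1), the 7 complex IV isoforms above, and Atp5l, Atp5s and the second of the pair of gene IDs that carry the symbol Atp5o, which had 0 counts in all 24 libraries. Several of them were far from silent and missed the limit for their background. Atp5l, the g subunit, whose 9 copies held counts equal to 37.4% to 42.6% of its own, had 29.8 and 31.8 scaled CPM in the APC-WT tumors and 157 and 153 in the APC-KO tumors, where 25.3 and 25.5 were expected as background. Ndufab1, the mitochondrial acyl carrier protein, had 41.2 and 46.1 against 114 and 109, with 27.0 and 27.2 expected in the APC-KO tumors. Ndufa4, first assigned to complex I and since placed with complex IV, had 11.8 and 13.2 against 34.6 and 37.1, with 5.42 and 5.46 expected in the APC-KO tumors. Ndufa4l2, known for its induction by hypoxia, had 0.146 and 0.476 in the APC-WT tumors and 5.06 and 3.43 in the APC-KO tumors, where 4.30 and 4.33 were expected.

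The start regions of respiratory subunit genes are known for binding sites of NRF1, of the ETS family factor GABP and of YY1. Windows from 250 bases before to 50 bases after the RefSeq start (GRCm38.p6) were held for 67 of the 86 genes and searched on both strands for GCGCA and GCGC parted by any 1 base (NRF1), CCGGAAG (ETS) and AAGATGGCG (YY1). The shares that follow are set against 3052 expressed genes, 16513 protein-coding genes and all 27025 genes with a window, in this order. NRF1 letters stood in 25.4% of the 67, against 12.5%, 7.45% and 5.19%. ETS letters stood in 23.9%, against 22.4%, 13.4% and 9.93%, and YY1 letters in 10.4%, against 3.96%, 2.25% and 1.64%. Any of the 3 stood in 50.7%, against 34.0%, 20.6% and 15.1%. The following stretches are shown because they carry such letters (in capitals, 5′ to 3′ on the strand of the gene) in front of complex II genes called lower and in front of genes of complexes I, III and V called higher.
Sdha, chr13:74350304-74350363, minus strand: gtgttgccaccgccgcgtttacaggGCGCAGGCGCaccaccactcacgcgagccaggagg
Sdhd, chr9:50603894-50603953, minus strand: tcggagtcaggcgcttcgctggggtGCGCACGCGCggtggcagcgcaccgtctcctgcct
Ndufa5, chr6:24527691-24527750, minus strand: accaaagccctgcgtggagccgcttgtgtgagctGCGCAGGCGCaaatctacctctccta
Atp5k, chr5:108434415-108434474, minus strand: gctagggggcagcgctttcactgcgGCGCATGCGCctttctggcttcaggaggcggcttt
Uqcr11, chr10:80406853-80406912, minus strand: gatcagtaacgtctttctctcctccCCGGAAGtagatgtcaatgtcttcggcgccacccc
Atp5e, chr2:174464169-174464228, minus strand: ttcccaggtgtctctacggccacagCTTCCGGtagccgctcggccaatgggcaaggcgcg
In the first 4 the capitals mark the NRF1 letters, in the last 2 the ETS letters, which Atp5e carries on the opposite strand. Among these stretches NRF1 letters stood before the lower complex II genes Sdha and Sdhd and before higher genes such as Ndufa5 and Atp5k. The lower genes of other complexes are not shown. A match describes letters in a window and is not a measured site.

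For the gene lists that follow, the share of all expressed genes called with the length term was 23.5% higher and 22.8% lower. Of the 13 mitochondrially encoded subunits, partners of the nuclear genes in complexes I, III, IV and V, 11 were expressed. Of these 9 were higher in APC-KO and 1, mt-Atp8, lower (at 1.32 without the length term), with a median of 1.65 and 2.62 without the length term. mt-Nd5 of complex I rose from 67.0 and 108 scaled CPM in the APC-WT tumors to 872 and 1032 in the APC-KO tumors, a change of 3.27 ± 0.28 (adjusted p = 0.00366 by edgeR), and mt-Co1 of complex IV from 359 and 479 to 2048 and 2515, a change of 2.04 ± 0.21 (adjusted p = 0.00444 by edgeR). The tricarboxylic acid cycle, which complex II belongs to, had 12 of 18 genes expressed, 1 higher and 4 lower, with a median of -0.11. Among those that fell were Pdha1, Idh3g and Ogdh, with changes of -0.76, -0.82 and -0.70, and Fh1, the fumarase that follows succinate dehydrogenase, rose by 0.81.

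Among the electron carriers and their partners 6 of 19 were expressed, 3 higher and 1 lower, where 23.5% of all expressed genes were higher and 22.8% lower. Cycs, cytochrome c, changed by 1.11 ± 0.11 (adjusted p = 0.00412 by edgeR), and Cyc1 by -0.08, which did not pass. Coq5 and Etfb rose by 1.02 and 0.68, and Etfa fell by 0.56, where it had 0.03 without the length term. Atpif1 rose by 0.34 (adjusted p = 0.0421 by edgeR). Assembly factors were mostly under the limits of expression: 1 of the 16 listed for complex I, 0 of 4 for complex II, 2 of 6 for complex III and 3 of 22 for complex IV were expressed, of which Ndufaf8 and Uqcc3 rose by 0.46 and 0.65 and Coa5 fell by 0.68. Mitochondrial ribosome proteins had 33 of 78 expressed, 15 higher and 0 lower (median 0.35), import proteins 9 of 25, 5 higher and 1 lower (0.44), and cytosolic ribosomal proteins 71 of 92, 46 higher and 0 lower (0.81); the lowest medians were those of the tricarboxylic acid cycle and of the itaconate, uncoupling and hypoxia-linked genes, with 7 of 8 expressed, 2 higher and 4 lower (-0.58).

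Of the regulators of mitochondrial biogenesis 1 of 14 was expressed, the nuclear receptor Esrra, which rose by 0.73. Nrf1 had 59.0 and 67.8 scaled CPM in the APC-WT tumors and 115 and 119 in the APC-KO tumors, where 40.4 and 40.6 were expected as background. Gabpa had 65.6 and 53.8 against 27.4 and 35.3, where 22.3 and 22.5 were expected. Tfam had 14.2 and 15.5 against 44.5 and 42.8, Ppargc1b 17.0 and 20.7 against 37.7 and 39.2, and Ppargc1a had 0.591 and 6.45 against 31.7 and 33.2, where 25.9 and 26.1 were expected. Levels of Ppargc1a in the APC-KO tumors were thus near the background. Ucp2, an uncoupling protein of macrophages, fell by 0.58 (adjusted p = 0.0338 by edgeR), and Acod1, the enzyme that makes itaconate, had 479, 929, 542 and 334 scaled CPM in the 4 tumors and a change of -0.36 that did not pass.

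Shared reads limit some of these values. A copy at least 95% identical over at least 50% of the transcript was found for 11 of the 86 genes, 9 of them expressed, and in 7 of those (Atp5g2, Atp5h, Atp5k, Atp5o, Ndufs3, Ndufs6 and Uqcrb) the copies' counts exceeded 10% of the gene's own in at least 1 tumor. For these 7 the authors' counting could divide reads between gene and copy, and their values are uncertain. Exons of 23 expressed subunits overlap another gene, among them Cox4i1 with Emc8 and Ndufs6 with Mrpl36, and the strand setting of the counting is not given in the sources used here. Sdha, Sdhc, Sdhd, Ndufb7, Uqcr11, Uqcrq, Atp5e and Atp5g1 have neither such a copy nor such an overlap.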

How the data were processed

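RNA of sorted macrophages was measured in 24 libraries of 4 tumors. The authors deposited whole-number counts for 55487 Ensembl gene IDs; bcl2fastq 2.20.0, HISAT2, StringTie and the build mm9 are named per the submitters' processing notes, without roles, strand or annotation version. Symbols, lengths and positions came from GENCODE M21 (GRCm38) by gene ID, not from mm9, and 260 IDs had none. The tools used on them were edgeR 4.0.16, DESeq2 1.42.0 and limma 3.58.1 under R 4.3.3, and Python 3.11.15.

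Each tumor's 6 libraries were added up, giving 2 sums per genotype, which edgeR's quasi-likelihood test compared with TMM scaling over the 3938 expressed genes and Benjamini-Hochberg adjustment at 0.05. Expressed genes excluded 12 satellite-like loci, defined after the data were seen by the share of 15-mers they have in common with Gm10800 (0.1 or more). Background came from 1974 receptor genes. The length offset is a loess curve (span 0.5) of log2 level (prior count 0.5) on log2 length of the longest protein-coding transcript in each tumor. The SE was obtained from the change and F (change over root F). Tumor pairs were fitted on 24 libraries with a mean per tumor.

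The members, the lists and the tests were chosen with earlier results of these data known. Named with values were, in each complex, up to 4 members with the smallest p, the 2 of highest level per kb, those called against their complex's median and a list of catalytic subunits and isoforms; in each pathway list up to 3 with the smallest p and 9 listed regulators. Further pathway genes (Fh1, Etfa, mt-Co1, mt-Atp8), the sort antigens' genes and other macrophage markers were named after their values were seen. So were the members lost or gained between length measures. Some single-gene results are not reported here.

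Counts were simulated for the 3938 expressed genes, 200 of them changed, with the measured length curves built in. Calls that only follow length were therefore false by design. In the simulated sums 4024 genes passed the filter, which took in genes outside the 3938 with their measured counts. On sums with the offset 71% of changes of size 1 and 96% of size 2 (log2) were found, at 11 false calls. Without the offset 1338 false calls were made, a count that does not test whether the length term is right. The test on libraries recovered 100% with 71 false calls among 3938 genes. Spread between tumors of one genotype was not simulated for it, so it gives no rate of false calls for the genotype. Libraries of a tumor differed beyond sampling noise (chi-square per degree of freedom of at least 6.45), so none were counted as duplicates. Alternatives covered the length measure, GC content, filters, scaling, tools, background, left-out tumors or libraries and a replicate block.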

Additional observations from a re-analysis of the deposited data

Results flagged for a closer look

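The 5 summed complex levels and 16 subunits followed library by library were examined in each tumor for a library far from its 5 companions, 84 groups in all, and 6 groups held one whose gap to its nearest neighbour, as a share of the range, exceeded Dixon's critical value. Chance gives about 1 in 20. In APC-KO tumor 1, Sdha was 98.6 scaled CPM in library 3 against 134 to 154 in the others, Uqcrb was 41.8 in library 1 against 52.6 to 56.9, Uqcr11 was 129 in library 3 against 149 to 157, and Atp5b was 630.1 in library 4 against 750.2 to 799. In APC-KO tumor 2, the summed level of complex II was 811 in library 5 against 659 to 707, and Ndufa2 was 169.7 in library 1 against 201 to 218. All 6 lay in the shallower APC-KO tumors, and their part in the changes above was not tested beyond the left-out libraries.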

How the results depend on the processing

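With 2 tumors per genotype, and APC-KO libraries down to 8895722 counts, the detection of changes under 1 log2 unit was not simulated. Without the length offset 63 members were higher and 1 lower (63 and 2 in all 4 pairs), medians were 1.47 over all, 1.47, 0.055, 1.38, 1.56 and 1.48 for complexes I to V, and the calls of Uqcrb (0.92), Sdhd (0.032), Cox8a (1.34), Ndufa1 (1.43), Atp5g3 (1.05) and Ndufc2 (0.61) reversed. With TMM over all genes and no offset, with or without filterByExpr, edgeR called 0 and 0 (17844 and 18013 genes at an unadjusted p under 0.05); relative to the median expressed gene, itself at -4.01, the members' median was 1.44 and the same genes were at 0.87, 0.054, 1.33, 1.39, 1.02 and 0.52. The median coding length, chosen after seeing the data, gave 53 higher, medians of 0.69 over all and 0.73, 0.59, 0.72 and 0.79 for complexes I, III, IV and V, and reversed Sdhc (-0.49), Cox8a (0.41), Ndufa1 (0.20) and Atp5g3 (0.40). The longest transcript of any type gave a median of 0.34 and 33 higher; the principal isoform gave 0.22 for complex I and -0.058 for Ndufb8; limits met in either genotype gave -0.055 for Sdhc; genes up to 2000 bp gave 4 lower; background subtraction gave 0.13 for complex III.

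Leaving out each tumor gave 12 to 18 higher and 0 to 7 lower, and medians of 0.13 to 0.20 over all, 0.21 to 0.42, -0.64 to -0.42, 0.07 to 0.12, 0.08 to 0.17 and 0.16 to 0.27 for complexes I to V; the lone tumor is then assumed to vary like the other group. Leaving out library 1 to 6 of every tumor gave 27 to 31 higher and 10 to 12 lower in all 4 pairs. DESeq2 called 27 and 9, and limma-voom 25 and 6. With a replicate block of tumor number 16 were higher and 3 lower, and Sdha had an adjusted p of 0.0544 in edgeR; the numbers are not said to pair tumors, and same-numbered deviations correlated at -0.395, so a crossed block, added after seeing this, was fitted and gave 26 and 8. A replicate block of library number gave 29 and 12 in all 4 pairs; same-numbered libraries did not all correlate above 0.1.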
